A study of Mus musculus with 8 samples.

Results

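Mitotic oligodendrocyte precursor cells (M-OPC) are the nuclei that the authors' annotation places in the class M-OPC, and all of them were taken from each of the 8 libraries. They were 353 of 44021 nuclei of the mouse visual cortex (VC), beside 8363 oligodendrocyte precursor cell (OPC) nuclei outside that class, 427 mitotic astrocytes (M-Astrocyte) and 447 mitotic microglia (M-Microglia). OPCs are glial precursors that carry the growth factor receptor Pdgfra, divide within the cortical tissue itself, and either renew themselves or leave the cell cycle and become newly formed oligodendrocytes (NFOL), then myelin-forming (MFOL) and mature (MOL) oligodendrocytes. A nucleus in cycle makes proteins such as Mki67, which coats mitotic chromosomes, and Top2a, which untangles replicated DNA, and clustering often sets such nuclei apart from their resting counterparts. In the second postnatal week many cortical OPCs are still dividing while the first of them mature.

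Nuclei were isolated from frozen VC of C57BL/6J mice at postnatal day 14, labelled for the neuronal marker NeuN, and those without it were sorted and barcoded on the 10x Chromium system. The 8 libraries formed 4 groups of 2, each with 1 male and 1 female library. A library combined tissue from 2 mice that shared genotype and sex. VGlut2 WT mice were VGlut2 f/f without cre, and VGlut2 cKO mice were VGlut2 f/f with RORα-IRES-Cre, in which cre acts in thalamic neurons, so that both groups carried the floxed allele and M-OPC themselves were not the intended target. Ip3r2 KO mice lacked the type 2 IP3 receptor in all cells, and Ip3r2 WT mice had the intact gene. The study paired KO mice of this line with WT littermates or non-littermates, and which were pooled in these libraries is not given. The study processed 1 WT and 1 mutant sample on each day. Whether both had the same sex is not given in the sources used here, so the part of the processing day in a difference between libraries of a model was not tested. Libraries held 4767 to 5920 nuclei, with a median of 1343 to 2242 unique molecular identifiers (UMIs, the count of captured RNA molecules) and 819.5 to 1214 detected genes per nucleus. Expression of single genes was not analysed here, so the name M-OPC could not be checked against Mki67, Top2a or Pdgfra, and the deleted genes could not be looked at. A cell barcode of 3 of the 353 M-OPC nuclei also occurred in another library, and none was M-OPC in both (0 barcodes).

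M-OPC were among the rarest classes of the sorted nuclei. There were 57 in the VGlut2 WT male library, 53 in the VGlut2 cKO male, 25 in the VGlut2 WT female, 26 in the VGlut2 cKO female, 35 in the Ip3r2 WT male, 44 in the Ip3r2 KO male, 65 in the Ip3r2 WT female and 48 in the Ip3r2 KO female library. Both female VGlut2 libraries held fewer than any of the other 6. The M-OPC share of all nuclei was, in the same order, 0.979%, 0.895%, 0.467%, 0.458%, 0.734%, 0.800%, 1.21% and 0.857%, with a mean of 0.80% ± 0.252 (SD, n = 8 libraries). The lowest of these shares had a Wilson 95% interval of 0.313% to 0.670% and the highest 0.950% to 1.54%, intervals which cover counting error only. By mean share M-OPC ranked 15 of 17 classes, ahead of MFOL and of the excitatory neuron-like class.

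Relative to their own lineage, M-OPC were about as frequent as the other mitotic glia. M-OPC were 4.63% of the M-OPC and OPC nuclei in the VGlut2 WT male library, 5.14% in the VGlut2 cKO male, 2.58% in the VGlut2 WT female, 2.07% in the VGlut2 cKO female, 3.77% in the Ip3r2 WT male, 4.06% in the Ip3r2 KO male, 5.72% in the Ip3r2 WT female and 4.43% in the Ip3r2 KO female library (4.05% ± 1.23, SD, n = 8). Again both female VGlut2 libraries were lowest. M-Astrocyte were 3.59% ± 0.857 of astrocytes and M-Microglia 3.95% ± 0.621 of microglia. On the log2 odds scale the mitotic share of the OPC lineage exceeded that of astrocytes by 0.15 ± 0.442 and was higher in 6 of 8 libraries (exact sign-flip test over 8 libraries, p = 0.328, adjusted p = 0.35 over 16 such comparisons). Against microglia the difference was -0.01 ± 0.430, higher in 3 of 8 libraries (exact sign-flip test, p = 0.922, adjusted p = 0.922). Neither difference was larger than the spread between libraries, and M-OPC had the widest spread of the 3 lineages.

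**Figure D1:**
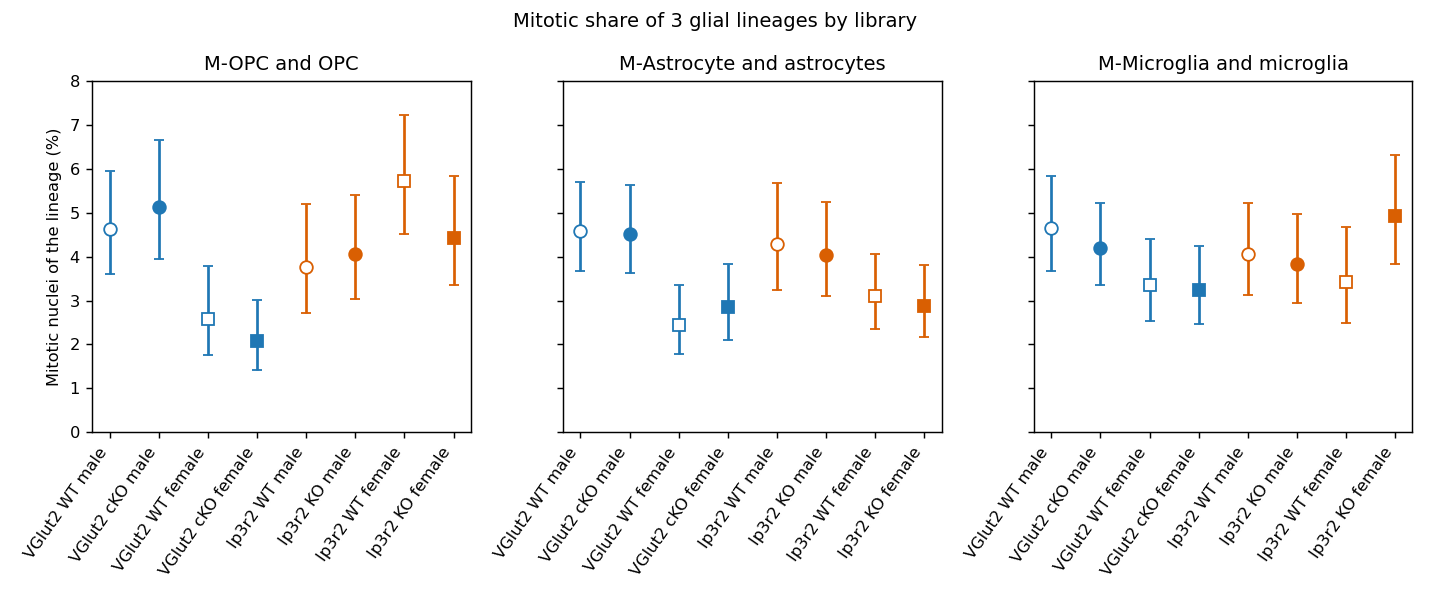
Mitotic nuclei as a percent of their lineage (vertical axis) in each of 8 libraries (horizontal axis), in 1 panel each for the OPC lineage, astrocytes and microglia, with circles for male and squares for female libraries, open symbols for WT and filled ones for mutant, and bars for Wilson 95% intervals of counting error. M-OPC ranged from 2.07% to 5.72%, and both female VGlut2 libraries lay lowest in the panels of the OPC lineage and of microglia, as well as in that of astrocytes.

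Apart from both female VGlut2 libraries, the libraries kept no common order across lineages. Across 8 libraries the log2 odds of the mitotic share of the OPC lineage and of astrocytes had Pearson's r = 0.53 (permutation p = 0.194) and Spearman's rho = 0.57 (permutation p = 0.151). With microglia the values were r = 0.55 (permutation p = 0.159) and rho = 0.52 (permutation p = 0.197), and over these 2 relations the adjusted permutation p was 0.194 for each r and 0.197 for each rho. Without both female VGlut2 libraries, which lie farthest from the median M-OPC share, r was -0.30 with astrocytes and -0.32 with microglia over 6 libraries, so the positive values rested on those 2 libraries. As deviations from the group means, which removes model and genotype, r was 0.58 and 0.63, with both female VGlut2 libraries included. These deviations hold only the difference between the male and the female library of each group, so the 8 values are not independent. M-OPC made up 28.2%, 26.2%, 22.3%, 22.2%, 25.5%, 28.9%, 42.8% and 31.4% of all mitotic glia in the library order used above. The Ip3r2 WT female library was highest, with a Wilson 95% interval of 35.2% to 50.7% that did not overlap those of the 4 VGlut2 libraries or that of the male library of its own group (19.0% to 33.4%). In that library M-Microglia were only 24.3% of the mitotic nuclei, against 33.7% to 43.8% elsewhere.

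Seen along the lineage, there were 6.89 and 6.08 NFOL nuclei per M-OPC in the VGlut2 WT and cKO male libraries, 12.7 and 13.3 in the VGlut2 WT and cKO female libraries, 9.06 and 8.07 in the Ip3r2 WT and KO male libraries, and 5.66 and 7.21 in the Ip3r2 WT and KO female libraries. NFOL are the first postmitotic stage, and the pair of female VGlut2 libraries had the most of them per M-OPC. NFOL themselves numbered 317 and 347 in those libraries and 317 to 393 in the other 6, so the ratio restates their low M-OPC counts. Those libraries also had 6.92 and 6.65 MOL per M-OPC, against 1.43 to 3.26 in the other 6. MOL numbered 173 in each of those libraries and 50 to 173 in the other 6, so that ratio joins a high MOL count to a low M-OPC count. Of the whole oligodendrocyte lineage, from M-OPC to MOL, M-OPC were 1.44% to 3.80% depending on the library.

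M-OPC carried more RNA molecules than OPC in every library. Their median was 2303 UMIs against 1783 for OPC in the VGlut2 WT male library, 2239 against 1690 in the VGlut2 cKO male, 2353 against 1866 in the VGlut2 WT female and 2610 against 2115.5 in the VGlut2 cKO female library. In the Ip3r2 model it was 3094 against 2458.5 in the WT male, 3462 against 2543 in the KO male, 3126 against 2455 in the WT female and 3204.5 against 2367 in the KO female library. Although some M-OPC medians lay below OPC medians of other libraries, M-OPC were above the OPC of their own library in 8 of 8, by 1.23-fold to 1.36-fold. The mean difference was 0.37 ± 0.0522 on the log2 scale (1.29-fold; exact sign-flip test, p = 0.00781, the smallest that 8 libraries allow, adjusted p = 0.0104). The classes were named by clustering the expression of these nuclei, so this and the following tests compare classes as named. A randomly drawn M-OPC nucleus had more UMIs than a randomly drawn OPC nucleus in 69.9% to 79.4% of all pairs of a library, and the share of M-OPC below the OPC median was 6.82% to 26.3%.

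The UMI counts of M-OPC spread about as widely within libraries as those of OPC. Over all libraries M-OPC ran from 755 to 7318 UMIs, with a median of 2789 and quartiles of 2239 and 3483. These pooled values also hold the depth of each library. M-OPC with over 2 times the OPC median of their library were 0% to 14.6%, the highest share being 7 of 48 nuclei in the Ip3r2 KO female library, and among OPC that share was 0.163% to 2.42%. The authors had removed doublets, pairs of nuclei under 1 barcode, with Scrublet, and whether any remained among the M-OPC of high UMIs was not tested. The spread of UMIs was close in both classes, with a coefficient of variation of 21.1% to 39.6% over M-OPC nuclei and 24.5% to 35.9% over OPC nuclei.

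A higher UMI count was not shared by all mitotic glia. M-Astrocyte had fewer UMIs than the astrocytes of their own library in 8 of 8, at 0.711 to 0.819 times their median. M-Microglia had more than microglia in 8 of 8, at 1.06 to 1.34 times. The step from the class not named mitotic to the mitotic class was larger in the OPC lineage than in astrocytes by 0.75 ± 0.0727 on the log2 scale, in 8 of 8 libraries (exact sign-flip test, p = 0.00781, adjusted p = 0.0104). It was also larger than in microglia, by 0.15 ± 0.116 in 7 of 8 libraries (exact sign-flip test, p = 0.0234, adjusted p = 0.0268). The exception was the Ip3r2 WT female library. Leaving out any 1 of the 4 VGlut2 libraries or of both male Ip3r2 libraries ended the call, at an exact sign-flip adjusted p of 0.0536 and a difference of 0.13 to 0.15. Without both female VGlut2 libraries, an alternative chosen after seeing the data, that difference was 0.12 and the adjusted p 0.107 by exact sign flips.

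**Figure D2:**
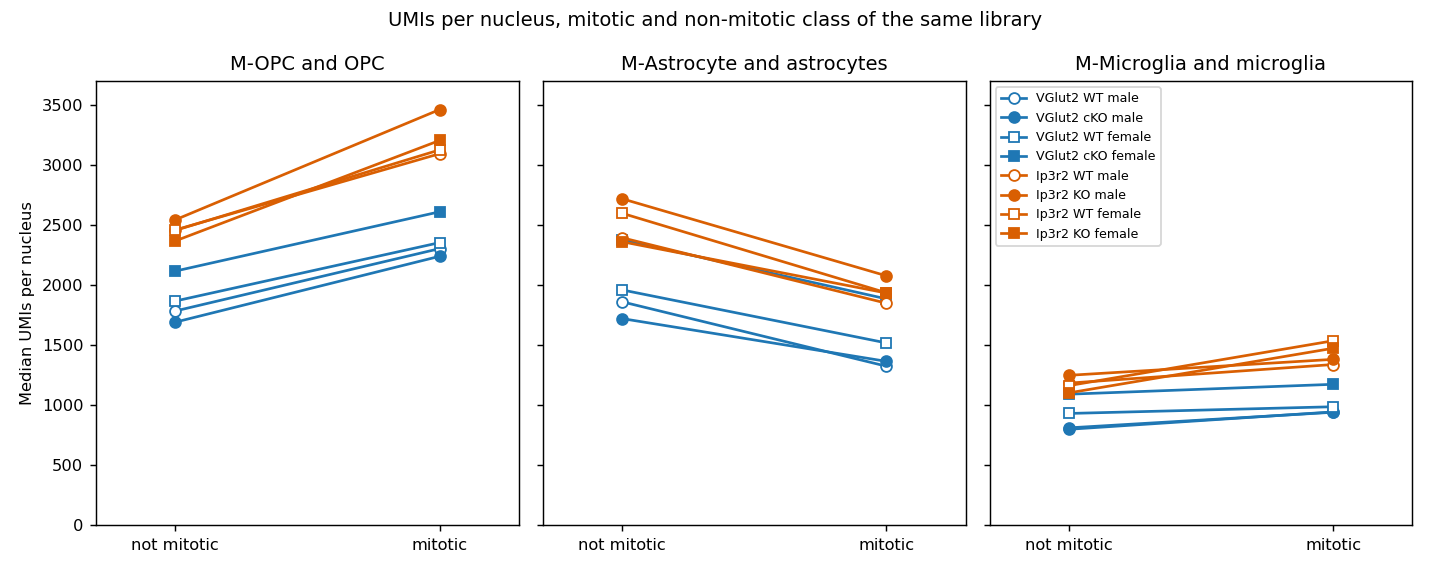
Median UMIs per nucleus (vertical axis, from 0) of the non-mitotic and the mitotic class of each lineage, with a line joining the 2 classes of each of 8 libraries (blue for VGlut2, orange for Ip3r2, circles male, squares female, open WT, filled mutant). All 8 lines rise for OPC, to 1.23 to 1.36 times, all 8 fall for astrocytes, to 0.711 to 0.819 times, and all 8 rise for microglia, to 1.06 to 1.34 times.

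Set directly against the other mitotic classes, M-OPC had the most UMIs in each library. Compared with M-Astrocyte the mean log2 difference was 0.69 ± 0.101 (1.61-fold) and compared with M-Microglia 1.21 ± 0.0992 (2.31-fold), each in 8 of 8 libraries (exact sign-flip test, p = 0.00781, adjusted p = 0.0104 for each). By library the M-OPC median was 1.39 to 1.74 times that of M-Astrocyte and 2.04 to 2.51 times that of M-Microglia. In the order of all 17 classes by mean of the library medians M-OPC ranked 3, at 2799 ± 477 UMIs. Only MOL and MFOL, the myelinating stages, were higher, and the classes just below M-OPC (2688 ± 665 for the excitatory neuron-like class, 2670 ± 430 for VLMC-Pia, a class of pial cells, and 2612 ± 395 for NFOL) lay within its spread over libraries, which holds the depth of each library. Within libraries the M-OPC median was above that of NFOL in 8 of 8, from 2303 against 2241 in the VGlut2 WT male to 3462 against 3089 in the Ip3r2 KO male library. Within single libraries the rank of M-OPC was between 3 and 5.

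**Figure D3:**
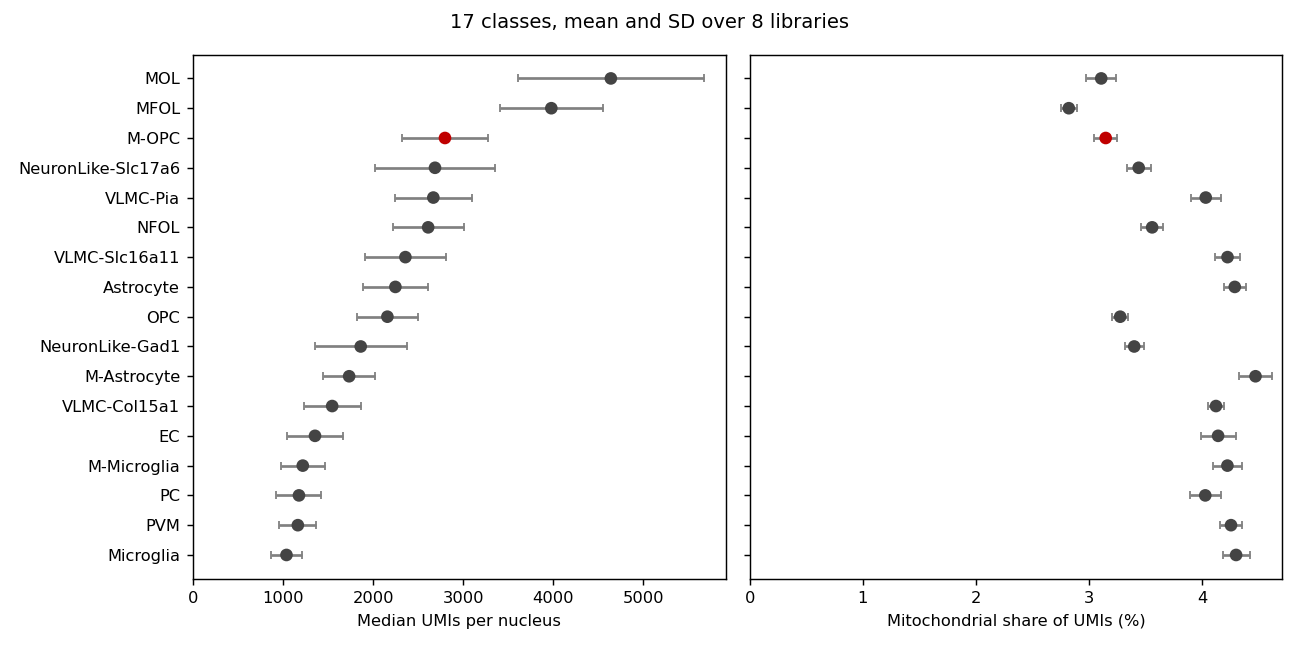
Median UMIs per nucleus (left) and mitochondrial share of UMIs in percent (right) of 17 classes, as the mean (point) and SD (bar) over 8 libraries, ordered by UMIs with M-OPC in red. M-OPC lie at 2799 ± 477 UMIs, below MOL and MFOL and above OPC, and at a mitochondrial share of 3.15% ± 0.100, close to OPC and far from M-Astrocyte and M-Microglia.

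M-OPC also had more detected genes than OPC. Their library medians were 1279, 1283, 1375, 1466, 1623, 1742, 1636 and 1643.5 genes, in the library order used above, and those of OPC were 1017, 978.5, 1084, 1206, 1320, 1354, 1306 and 1254. M-OPC were higher in 8 of 8 libraries, by 0.34 ± 0.0399 on the log2 scale (1.27-fold; exact sign-flip test, p = 0.00781, adjusted p = 0.0104). They also exceeded M-Astrocyte by 0.42 ± 0.0419 and M-Microglia by 0.81 ± 0.0981, in 8 of 8 libraries each (exact sign-flip test, p = 0.00781, adjusted p = 0.0104 for each). Since a nucleus with more UMIs shows more genes, each M-OPC nucleus was then compared with the OPC nuclei of its library within 5% of its own UMI count, which was possible for 334 of 353.

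At equal UMIs M-OPC still had more detected genes than OPC, by a small and even margin. The ratio was 1.07, 1.06, 1.06, 1.06, 1.06, 1.06, 1.06 and 1.06 in the library order used above, or 0.09 ± 0.0053 on the log2 scale, in 8 of 8 libraries (exact sign-flip test, p = 0.00781, adjusted p = 0.0104). It was the least variable of the 3 log2 differences between M-OPC and OPC (UMIs, genes, and genes at matched UMIs). The same comparison in the other lineages, chosen after seeing the data, gave 1.19-fold for M-Astrocyte over astrocytes (1.16 to 1.22 by library, 363 of 427 nuclei matched) and 1.02-fold for M-Microglia over microglia (1.01 to 1.04, 430 of 447 matched). M-OPC thus lay between them: the log2 step was 0.16 ± 0.0257 smaller than in astrocytes and 0.05 ± 0.0185 larger than in microglia, in 8 of 8 libraries each (exact sign-flip test, p = 0.00781 for each, adjusted p = 0.00781 over the 5 comparisons made).

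**Figure D4:**
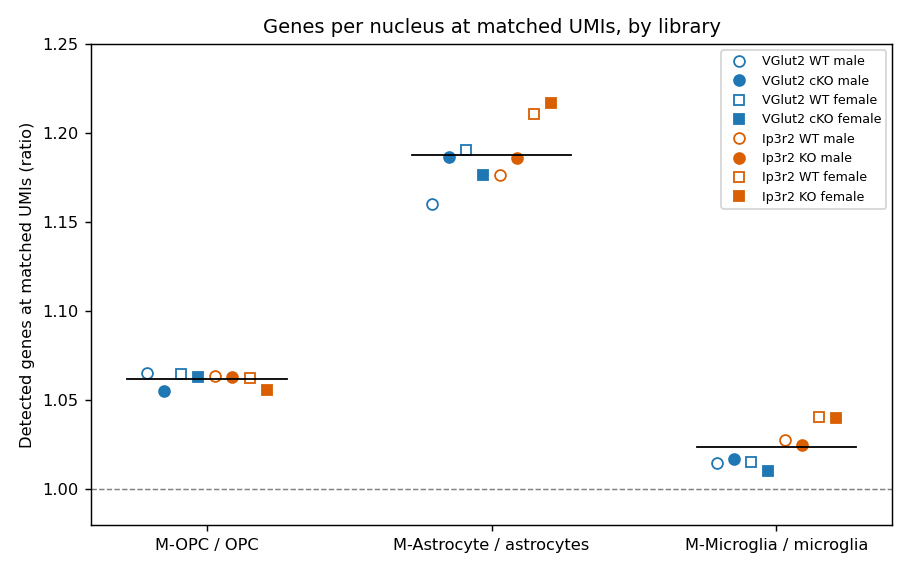
Ratio of detected genes of mitotic nuclei to non-mitotic nuclei of the same library at matched UMIs (vertical axis, 1 = equal, dashed line) for the 3 lineages, 1 point per library with symbols by library and a line at the mean of 8. M-OPC lie at 1.06 to 1.07 in all 8 libraries, M-Astrocyte at 1.16 to 1.22 and M-Microglia at 1.01 to 1.04.

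Matching M-OPC to the other mitotic classes reached few nuclei. Only 79 of 353 M-OPC had 5 or more M-Astrocyte of like UMI count, and these, which are M-OPC of low UMIs, had fewer genes by 0.08 ± 0.0268 on the log2 scale, in 8 of 8 libraries (exact sign-flip test, p = 0.00781, adjusted p = 0.0104). For these 79 M-OPC, 3 to 23 per library, the order against M-Astrocyte in genes per nucleus was thus the reverse of that of all nuclei without matching. For M-Microglia only 20 of 353 M-OPC could be matched, in 7 libraries, with a difference of -0.14 ± 0.0674 that rested on 1 to 8 nuclei per library.

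The mitochondrial share of UMIs was slightly lower in M-OPC than in OPC. The mean over M-OPC nuclei was 2.99%, 3.12%, 3.21%, 3.10%, 3.26%, 3.29%, 3.06% and 3.13% in the library order used above, against 3.17%, 3.25%, 3.36%, 3.30%, 3.36%, 3.30%, 3.20% and 3.25% in OPC. M-OPC were lower in 8 of 8 libraries, with a mean difference of -0.13 ± 0.0583 percentage points (exact sign-flip test, p = 0.00781, adjusted p = 0.0104), although in the Ip3r2 KO male library the difference was only -0.0095. M-OPC and OPC ranked 15 and 14 of 17 classes from the highest, with only MOL and MFOL lower. M-Astrocyte and M-Microglia stood at 4.47% ± 0.145 and 4.22% ± 0.125, so M-OPC were lower by 1.32 ± 0.138 and 1.08 ± 0.175 points, in 8 of 8 libraries each (exact sign-flip test, p = 0.00781, adjusted p = 0.0104 for each). A gap of the same direction lay between the classes not named mitotic. OPC stood at 3.27% ± 0.0683, astrocytes at 4.29% ± 0.0953 and microglia at 4.30% ± 0.119. In nuclei such reads come from RNA outside the nucleus or carried over, and their part in the differences of UMIs was not tested.

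In the authors' UMAP and t-SNE maps M-OPC formed a group of their own. Of the 15 nearest nuclei of each M-OPC nucleus in the UMAP, 99.2% were M-OPC, 0.510% OPC and 0.246% M-Astrocyte. M-Microglia and every other class were absent among them (0%). In the t-SNE map 98.2% were M-OPC. Of the 353 nuclei, 7 had any OPC and 4 any M-Astrocyte among the 15 in the UMAP. Over the first 2 principal components, by contrast, M-OPC were less set apart: 44.4% of the nearest nuclei were M-OPC and 38.9% OPC. A further 2.40% were NFOL and 0.132% M-Astrocyte, and 14.2% belonged to other classes. By the distance between class medians in the UMAP, M-Astrocyte (3.78) lay closer to M-OPC than OPC did (5.65, in units of the map). In the t-SNE map the order was the reverse, at 54.1 for M-Astrocyte and 24.9 for OPC. It was also the reverse over the first 2 principal components, at 0.433 for M-Astrocyte and 0.197 for OPC. OPC were not the nearest class in either, however. Pericytes (14.3), VLMC-Pia (14.8) and MOL (22.4) lay nearer in the t-SNE map, and NFOL (0.156) over the principal components. In the UMAP, perivascular macrophages (5.65) and pericytes (5.70) lay about as far as OPC. These maps derive from the expression data behind the class names and were read as a description only.

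M-OPC were then compared between genotypes, with VGlut2 deleted in thalamic neurons or Ip3r2 in all cells. In VGlut2 cKO the M-OPC share of all nuclei was 0.895% and 0.458% (male and female) against 0.979% and 0.467% in VGlut2 WT, and in Ip3r2 KO it was 0.800% and 0.857% against 0.734% and 1.21% in Ip3r2 WT. WT and mutant ranges overlapped in both models. The log2 odds differed by -0.08 (95% interval -0.99 to 0.83; limma adjusted p = 0.980) between VGlut2 cKO and WT and by -0.19 (-1.10 to 0.72; limma adjusted p = 0.994) between Ip3r2 KO and WT. These effects differed from each other by 0.11 (-1.18 to 1.40; limma adjusted p = 0.959). In none of these contrasts did any of the 17 classes pass the threshold (0%), and at an unadjusted p under 0.05 limma gave 0 classes for VGlut2, 1 for Ip3r2 and 1 for their difference, and edgeR called 0 in each. A rise of the odds by 1.5 times lies inside both genotype intervals, so changes of that size would not have been detectable here.

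The share of M-OPC in their lineage gave the same picture. It differed by -0.08 on the log2 odds scale (95% interval -1.20 to 1.04; limma adjusted p = 0.967) between VGlut2 cKO and WT and by -0.14 (-1.26 to 0.98; limma adjusted p = 0.939) between Ip3r2 KO and WT. None of the 8 lineage ratios passed (0%; 0 at an unadjusted p under 0.05 in limma). Within each same-sex pair, however, the mutant library was above WT in males and below it in females in both models. The log2 ratio of mutant to WT was 0.15 and -0.31 in the male and female VGlut2 pairs and 0.11 and -0.37 in the male and female Ip3r2 pairs. With OPC in the denominator this pattern was complete, but in the share of all nuclei the VGlut2 male pair was at -0.13, and the pattern did not hold. A test of the difference between the sexes, chosen after seeing the data, gave 0.49 (95% interval 0.15 to 0.82; limma adjusted p = 0.0728), while 12.5% of the 8 ratios passed in that contrast, MFOL and MOL among committed cells being the one.

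UMIs and genes of M-OPC did not pass a test between genotypes either. The log2 difference of median UMIs was 0.05 (95% interval -0.34 to 0.45; limma adjusted p = 0.960) for VGlut2 cKO and 0.10 (-0.29 to 0.49; limma adjusted p = 0.99995) for Ip3r2 KO, and that of genes 0.05 (-0.27 to 0.36; limma adjusted p = 0.923) and 0.05 (-0.26 to 0.37; limma adjusted p = 0.996). The mitochondrial share differed by 0.01 (-0.08 to 0.10) and 0.02 (-0.07 to 0.11) on the log2 scale (limma adjusted p = 0.930 and 0.972). Of the 15 classes with 20 or more nuclei in every library, 0% passed in each of these comparisons. The excess of UMIs over OPC was 1.29-fold and 1.26-fold in VGlut2 WT, 1.32-fold and 1.23-fold in VGlut2 cKO, 1.26-fold and 1.27-fold in Ip3r2 WT, and 1.36-fold and 1.35-fold in Ip3r2 KO (male and female). It was higher in KO than in WT in both Ip3r2 pairs, a difference that was not tested.

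Between the models M-OPC differed in depth. The 4 Ip3r2 libraries, at 3094 to 3462 median UMIs, did not overlap the 4 VGlut2 libraries, at 2239 to 2610, a 1.36-fold difference (exact permutation test of 4 against 4 libraries, p = 0.0286, the smallest possible, adjusted p = 0.0571 over 4 measures). Genes were 1.23-fold higher, also without overlap (exact permutation test, p = 0.0286, adjusted p = 0.0571). Between the WT groups alone the log2 difference of UMIs was 0.42 (95% interval 0.03 to 0.81; limma adjusted p = 0.0471), and that of genes 0.30 (-0.02 to 0.61; limma adjusted p = 0.0690). In that contrast 80.0% of the 15 classes passed for UMIs and 60.0% for genes, so the depth of M-OPC moved with that of most classes. The call for UMIs did not stand without any 1 of the 4 WT libraries or of both Ip3r2 KO libraries: the limma adjusted p was 0.159 and 0.109 without the VGlut2 WT male and female library, 0.144 and 0.203 without the Ip3r2 WT male and female library, and 0.0801 without either Ip3r2 KO library. For genes, leaving out either VGlut2 cKO library brought a call (limma adjusted p = 0.00694). The M-OPC share of all nuclei was 0.70% ± 0.276 in the VGlut2 and 0.90% ± 0.212 in the Ip3r2 libraries (exact permutation test, p = 0.286, adjusted p = 0.343), and that of the OPC lineage 3.61% ± 1.51 and 4.50% ± 0.861 (exact permutation test, p = 0.343, adjusted p = 0.343). Model and processing day cannot be told apart.

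M-OPC frequency also differed between the male and the female library of each VGlut2 group, and less clearly in the Ip3r2 groups. The female share of all nuclei was 0.476 times the male one in VGlut2 WT and 0.511 times in VGlut2 cKO, but 1.65 times in Ip3r2 WT and 1.07 times in Ip3r2 KO. Fisher's exact tests on nuclei, which compare single libraries and not sexes, gave p = 0.0124 (adjusted p = 0.0248) in VGlut2 WT and p = 7.54e-05 (adjusted p = 0.000302) in VGlut2 cKO for the M-OPC share of the OPC lineage. In Ip3r2 WT the same exact test gave p = 0.0399 (adjusted p = 0.0532) and in Ip3r2 KO p = 0.749 (adjusted p = 0.749). The spread within both VGlut2 groups was thus beyond counting error. Over all 4 groups the female libraries did not differ from the male ones in the share of all nuclei (log2 odds -0.30, 95% interval -0.79 to 0.19; limma adjusted p = 0.622) by more than the spread.

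Taken within each model, a test chosen after seeing the data, the VGlut2 female libraries were lower than the male ones by a log2 odds of -1.01 (95% interval -1.59 to -0.43; limma adjusted p = 0.0188), and M-OPC and M-Astrocyte were the classes that passed (11.8% of 17). In Ip3r2 the value was 0.41 (-0.17 to 0.98; limma adjusted p = 0.452), with 5.88% of classes called, MFOL alone. That value was 0.0977 without either Ip3r2 WT library and 0.72 without either Ip3r2 KO library. The difference between both was -1.42 (-2.23 to -0.60; limma adjusted p = 0.0203), and M-OPC were the single class called (5.88%). In this fit the standard error was common to all classes, so the intervals are not the spread of M-OPC alone. As a share of the OPC lineage the values were -1.10 (limma adjusted p = 0.0664) in VGlut2 and 0.38 (limma adjusted p = 0.811) in Ip3r2, with a difference of -1.48 (limma adjusted p = 0.0915) and 0% of the ratios called. Leaving out either library of a VGlut2 group ended the call in VGlut2 (-1.06 at limma adjusted p = 0.294 without a cKO library, -0.96 at 0.888 without a WT library). The difference between both models likewise lost its call without a VGlut2 cKO (limma adjusted p = 0.160), a VGlut2 WT (0.230) or an Ip3r2 WT library (0.116). Median UMIs of M-OPC in the female VGlut2 libraries, 2353 and 2610, were not below those of the male ones, 2303 and 2239.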

How the data were processed

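By the study's methods and processing notes, the authors aligned the reads to mm10 with Cell Ranger, discarded barcodes with few genes, removed doublets with Scrublet in each sample, used Scanorama for batch correction, and called Leiden clusters. The deposited table gives 1 line per nucleus, with UMIs and genes as raw counts, its class, and map coordinates on an arbitrary scale, here treated as the authors' score. The mitochondrial value was deposited by the authors as a fraction, although its header says percent: multiplied by the UMIs it was whole within 0.001 in 44021 of 44021 nuclei. The lowest number of genes was 200. Library, model, genotype and sex matched the labels in 8 of 8 libraries.

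M-OPC were taken by class name. The 4 astrocyte groups were joined, which left 17 classes. Members, classes and tests were chosen with earlier results of these data known. Libraries were the replicates: they came from different pools of mice, and their spread holds sex and day. Shares were log2 odds of (nuclei + 0.5) / (total + 1), fitted with limma 3.58.1 (R 4.3.3) over 17 classes, or over 8 lineage ratios, with 1 mean for each of 4 groups. Log2 library medians of UMIs and genes, and log2 mean mitochondrial shares, were fitted over the 15 classes with 20 or more nuclei in every library. P-values were adjusted after Benjamini-Hochberg, with a threshold of 0.05, and were two-sided. In the fits of UMIs, genes and mitochondrial share by group, the standard error was common to all classes. The same held for the fits of the share of all nuclei between sexes. Classes of 1 library were compared by exact sign flips over 8 libraries. Matching used partners within 5% of the UMIs and at least 5 of them. Classes named are M-OPC, its comparators, the later stages, and any class past the threshold. Alternatives included edgeR 4.0.16 on the tallies, nuclei with at least 500 genes, a same-sex block and leaving out each library. Scripts were tested on simulated data. No sequence was part of these data.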

Additional observations from a re-analysis of the deposited data

Results flagged for a closer look

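The female minus male difference of M-OPC had opposite signs in the 2 models, negative in both VGlut2 groups and positive in both Ip3r2 groups. The models differed in it by -1.42 log2 odds for the share of all nuclei (limma adjusted p = 0.0203) and by -1.48 for the share of the OPC lineage (limma adjusted p = 0.0915). The Ip3r2 value for the share of all nuclei, 0.41, was 0.0977 without either Ip3r2 WT library. Whether sex went with processing day is not given in the sources used here, and the part of the day was not tested.

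The mutant minus WT difference of the M-OPC share of the OPC lineage was positive in both male pairs and negative in both female pairs. Males exceeded females by 0.49 log2 odds (limma adjusted p = 0.0728), which missed the threshold over the 8 ratios. Both tests were chosen after seeing the data.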

How the results depend on the processing

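The excess of UMIs and genes of M-OPC over OPC, M-Astrocyte and M-Microglia, their lower mitochondrial share, and the matched gene counts against OPC and M-Astrocyte kept their direction and call under all alternatives tried. The larger UMI step than in microglia lost its call without both female VGlut2 libraries (0.12) and ranged from 0.13 to 0.18 with 1 library left out, losing it for 6 of the 8. The difference in mitotic share from astrocytes was 0.30 with nuclei of at least 500 genes (exact sign-flip adjusted p = 0.0917) and 0.0434 to 0.24 with 1 library left out. That from microglia was 0.15 without both female VGlut2 libraries and -0.13 to 0.0773 with 1 library left out. Without the 2 farthest libraries the correlations were -0.30 and -0.32.

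None of the genotype values passed under any alternative, but signs turned. VGlut2 cKO minus WT became 0.0136 for the share of all nuclei with edgeR and TMM scaling, and -0.0472 for UMIs and -0.0317 for genes with means of log2 values. With 1 library left out, log2 values ran from -0.61 to 0.45 (VGlut2), -0.55 to 0.17 (Ip3r2), -0.42 to 0.64 (their difference) and -0.0523 to 1.01 (between WT groups) for the share of all nuclei. For the share of the OPC lineage they ran from -0.75 to 0.59, -0.45 to 0.17 and -0.62 to 0.73 (VGlut2, Ip3r2 and their difference). For VGlut2 they ran from -0.0562 to 0.17 in UMIs and -0.0477 to 0.14 in genes, for Ip3r2 from 0.0432 to 0.15 and 0.0124 to 0.0963, and for the mitochondrial share from -0.0432 to 0.0553 (VGlut2) and -0.0243 to 0.0674 (Ip3r2). UMIs between WT groups ran from 0.40 to 0.43 and lost the call without any of 6 libraries, both VGlut2 cKO ones being the exceptions. With nuclei of at least 500 genes, the female minus male difference of the OPC lineage share in VGlut2 passed (-1.12, limma adjusted p = 0.0441). A lone remaining library was assumed to vary like the other groups. The cause of these shifts was not tested.

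The labels number no replicates. With the same-sex pair as a replicate block the share of all nuclei differed by -0.08 and -0.19 in VGlut2 and Ip3r2, and no call changed. With 25 to 65 M-OPC per library, counting error alone is wide, and 2 libraries per group leave genotype effects of up to about the intervals given undetected.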
